A study of Mus musculus with 36 samples.

Results

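The collagen genes of the count table were all entries whose symbol names a collagen alpha chain (Col, a type number, the letter a and a chain number), which gave 44 of 43472 entries. Of these, 11 encode chains of fibrillar collagens, 6 encode chains of type IV collagen, the network collagen of basement membranes, and 27 encode all other chains. Counts came from QuantSeq 3′ mRNA libraries of primary embryonic neurosphere-derived enteric glial cells (EGCs), grown from intestines of E13.5 C57BL/6J mice of WT genotype. EGCs were left unstimulated or exposed to medium conditioned by digested healthy colon (H-CM EGCs) or by digested orthotopic tumors of the MC38 colon cancer line (TME-CM EGCs), for 6, 12 or 24 h. There were 4 libraries for each of the 9 groups, 36 in all, and the question was how factors secreted by the tumor microenvironment change EGCs. All groups shared the same neurosphere origin and differentiation in medium with serum, and the sources do not say whether replicates came from separate cultures, so p-values measure only the spread between these libraries.

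Collagens are proteins of the extracellular matrix built from triple helices of alpha chains. Fibrillar collagens assemble into the cross-linked fibrils that give the gut wall its tensile strength, type IV collagen forms sheets under epithelia and around glia, muscle and vessels, and the remaining types decorate fibrils, form beaded or hexagonal networks, or span the cell membrane. In the enteric nervous system, ganglia lie in a sheath of basement membrane and collagen fibrils, and collagen chains need hydroxylation, chaperoned folding, propeptide removal and cross-linking before they form matrix.

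After 24 h, 8 of the 30 collagen genes that could be tested passed the test for a different level in TME-CM EGCs than in H-CM EGCs, against 5.4% of all genes tested. Fits that left out a library called 5 to 7 collagen genes, and a model of all 36 libraries called 0. The shares of all genes called in those fits are not given here. Col24a1, Col13a1 and Col3a1 were higher in TME-CM EGCs, and Col23a1, Col6a3, Col8a2, Col14a1 and Col18a1 were lower. None of the 3 tested type IV chains was among them, nor was Col1a1, the most abundant collagen transcript. The sequences in front of the annotated starts of 5 of these genes are shown because those genes moved in opposite directions. They are the 250 bases before the start in RefSeq (GRCm38.p6), read 5′ to 3′ on the strand of the gene, with matches to the motifs searched in capitals. The first 3 lines are genes that were higher in TME-CM EGCs, at chr1:45311288-45311537 (plus strand), chr10:61979109-61979358 (minus) and chr3:145292222-145292471 (plus). The last 2 lines are genes that were lower, at chr11:51289670-51289919 (plus) and chr1:90843972-90844221 (minus).
Col3a1: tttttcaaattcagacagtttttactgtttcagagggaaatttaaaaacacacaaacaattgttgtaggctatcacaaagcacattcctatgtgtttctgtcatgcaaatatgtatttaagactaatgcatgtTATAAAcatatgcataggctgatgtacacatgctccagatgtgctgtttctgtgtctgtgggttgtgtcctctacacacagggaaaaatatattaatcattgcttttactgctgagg
Col13a1: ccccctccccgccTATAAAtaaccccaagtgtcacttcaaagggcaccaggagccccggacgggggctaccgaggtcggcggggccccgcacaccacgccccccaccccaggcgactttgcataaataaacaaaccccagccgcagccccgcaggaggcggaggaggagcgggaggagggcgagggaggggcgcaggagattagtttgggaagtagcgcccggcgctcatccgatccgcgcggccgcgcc
Col24a1: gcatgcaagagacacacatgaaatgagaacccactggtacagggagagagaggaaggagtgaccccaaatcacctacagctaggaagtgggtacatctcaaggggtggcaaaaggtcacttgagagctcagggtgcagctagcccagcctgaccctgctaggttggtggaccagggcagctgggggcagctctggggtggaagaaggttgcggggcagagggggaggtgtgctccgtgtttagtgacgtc
Col23a1: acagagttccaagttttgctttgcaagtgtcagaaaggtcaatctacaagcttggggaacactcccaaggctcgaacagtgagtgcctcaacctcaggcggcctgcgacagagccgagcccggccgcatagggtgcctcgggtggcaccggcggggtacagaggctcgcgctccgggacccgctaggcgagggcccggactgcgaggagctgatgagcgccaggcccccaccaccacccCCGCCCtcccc
Col6a3: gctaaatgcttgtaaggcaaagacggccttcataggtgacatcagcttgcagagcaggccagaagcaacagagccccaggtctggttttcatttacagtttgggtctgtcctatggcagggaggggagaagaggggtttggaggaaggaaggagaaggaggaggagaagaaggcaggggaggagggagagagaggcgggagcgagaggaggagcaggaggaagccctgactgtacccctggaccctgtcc
The motifs were searched on both strands. They were the TATA box (TATAAA), the CCAAT box, the GC box (GGGCGG, which reads CCGCCC on the opposite strand), the AP-1 site (TGANTCA) and the NF-kB site (GGGA and TTCC with any 2 bases between them). Col3a1 and Col13a1 each held a TATAAA, Col23a1 held a GC box, and none of the 5 motifs matched in front of Col24a1 or Col6a3. Windows of lower genes that are not shown held more matches: 4 GC boxes for Col8a2, and 3 GC boxes and a CCAAT box for Col18a1. A further window of Col18a1 held none. RefSeq windows were found for 35 of the 44 collagen genes, 38 windows in all. They also hold the first 50 bases after the start, but only the 250 bases before it were searched. TATAAA occurred in 5 of these 38 windows and in 12.4% of the 32851 windows of all genes, the GC box in 22 and in 32.7%, CCAAT in 13 and in 33.8%, the AP-1 site in 1 and in 6.7%, and the NF-kB site in 0 and in 1.2%. These are letter matches and say nothing of factors bound there.

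The smallest library held 13518 counts and the largest 7552509. Median totals rose from 1526580 counts in the 6 h libraries to 4090589 in those of 12 h and 5465090 in those of 24 h. The 6 h libraries scattered most (common dispersion 0.572, against 0.122 at 12 h and 0.0455 at 24 h), and deep ones among them did too. TME-CM replicate 1 of 6 h held 4158689 counts on 10120 genes, and the 6 h TME-CM replicates differed from each other by a chi-square per gene of 53.3 to 98.98. At 24 h, TME-CM replicate 2 (2895248 counts) differed from the other TME-CM replicates by 47.5 to 57.9. Those differed from each other by 5.87 to 12.1. Unstimulated replicate 1 of 24 h differed from the others of its group by 34.5 to 59.8, and those from each other by 5.61 to 12.6. The share of a library's counts on collagen genes lay between 0.247% and 0.972% at 6 h, 0.666% and 1.29% at 12 h, and 0.666% and 1.32% at 24 h. Levels are given as CPM, the count scaled to a common library size with TMM factors, and as mean ± SD over the 4 libraries of a group (n = 4) except where another number is named. Because each transcript is read from its 3′ end, a count is not scaled by transcript length, and chains are set side by side in CPM. Other differences between chains in capture or counting were not tested, so their order and ratios are those of counts. The labelled cell type was checked with markers: Sox10, the glial transcription factor, had counts in all 36 libraries and lay at 65.8 ± 5.81 CPM in H-CM EGCs at 24 h, while Gfap lay at 3.17 ± 0.725 CPM. The 10 glial markers summed to 284 ± 11.7 CPM in those libraries, the 11 smooth muscle markers to 4894 ± 550 CPM and the 9 fibroblast markers to 1254 ± 87.8 CPM. Transcripts on the smooth muscle and fibroblast lists were thus abundant, but few genes made up most of each sum. These were Acta2 (2650 ± 229 CPM) and Mylk (1310 ± 232 CPM) for smooth muscle, and Dcn (979 ± 104 CPM) for fibroblasts. The smooth muscle markers Myh11, Cnn1 and Des lay at 66.3 ± 11.3, 71.3 ± 14.8 and 65.9 ± 11.5 CPM, near Sox10. In such bulk samples, fewer cells of a type and less RNA per cell cannot be told apart.

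The collagen RNA of EGCs was dominated by a few fibrillar and type IV chains. Over the 12 libraries of 24 h, Col1a1, the main chain of type I collagen, averaged 3294 CPM, 35.3% of all collagen CPM. Next in order came Col4a1 with 1366 CPM, Col1a2 with 997, Col3a1 with 886, Col4a2 with 574, Col5a2 with 528 and Col5a1 with 439, and these 7 chains held 86.7% of collagen CPM. The neighbours Col1a2 and Col3a1 overlapped in level within every stimulation at 24 h, whereas Col1a1 lay above every other chain in all 12 libraries. Outside these classes the highest were Col6a3 with 202 CPM, Col18a1 with 192 and Col8a1 with 144. A mean of at least 5 CPM at 24 h was reached by 24 of the 44 genes, down to Col24a1 with 8.73. The 6 genes from Col9a2 (3.43 CPM) to Col9a3 (1.35 CPM) were lower but tested, and the remaining 14 averaged under 1 CPM. Among these, Col4a3 and Col4a4, chains of the basement membrane of the kidney glomerulus, and Col4a6, a further type IV chain, had 20, 42 and 30 counts in all libraries together. Col2a1, the collagen of cartilage, had 14 counts, Col6a5 had 1 and Col6a6 had 0.

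**Figure D1:**
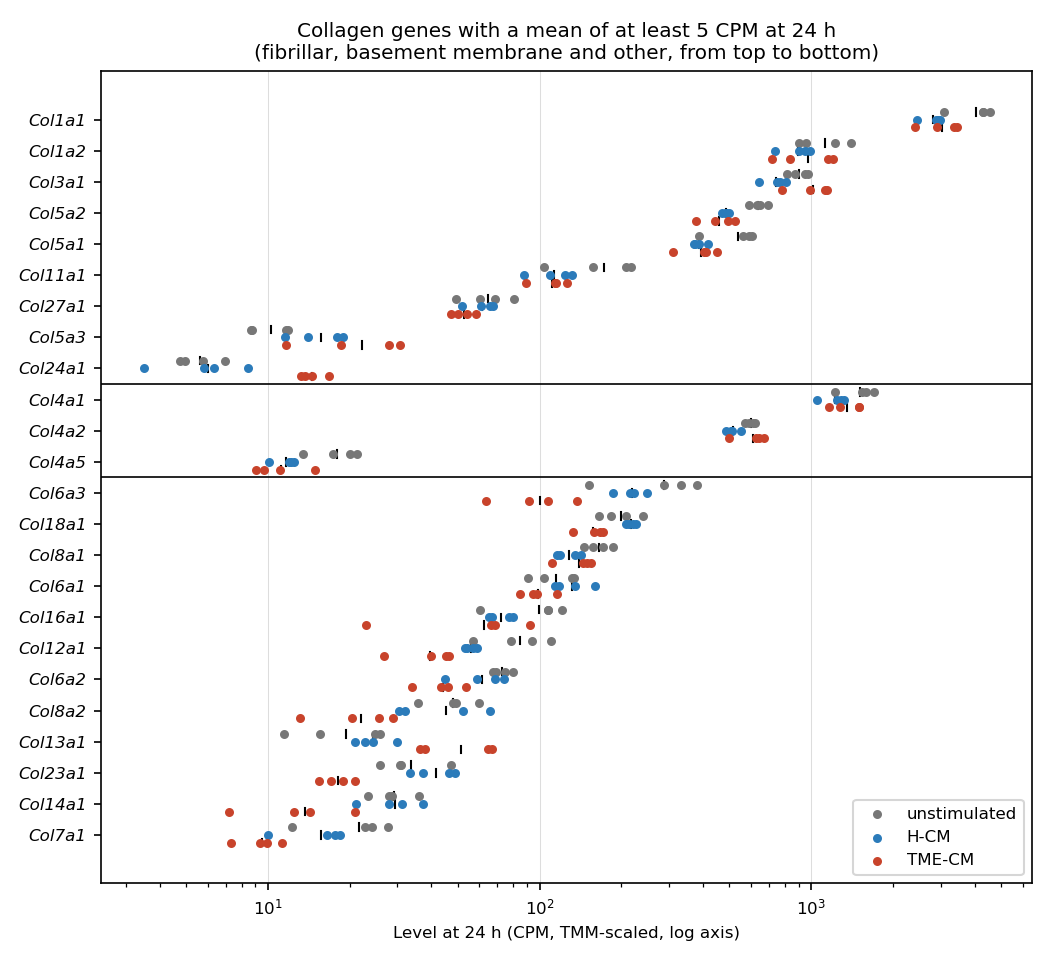
Level at 24 h of the 24 collagen genes averaging 5 CPM or more, on a log axis in CPM, each point a library and each black tick the mean of 4 libraries, in unstimulated (grey), H-CM (blue) and TME-CM (red) EGCs. Col1a1 is highest with 3294 CPM over all libraries, and the TME-CM libraries of Col24a1 and Col13a1 lie to the right of the H-CM libraries, those of Col6a3, Col23a1 and Col14a1 to the left.

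The positions of the genes in the GRCm38 annotation (the assembly also called mm10) place the 44 on 15 chromosomes, with 8 pairs of neighbours. Col4a1 (chromosome 8, 11198423 to 11312826, minus strand) and Col4a2 (11312805 to 11449287, plus strand) lie head to head and share 22 exon bases at their starts. Col3a1 (chromosome 1, 45311538 to 45349706, plus strand) lies tail to tail with Col5a2, 24614 bases apart, and shares 141 exon bases on its own strand with the miRNA entry Gm47302. In all, 13 of the 44 genes share exon bases with another annotated gene, 3 of the 14 named in detail (Col3a1, Col4a1 and Col4a2). Whether reads were counted by strand is not given in the sources used here, so reads from such shared bases may have been left out or assigned to either gene.

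Summed by class, the chains outside the fibrillar and type IV classes were lower in TME-CM EGCs at 24 h, whereas the fibrillar and type IV sums overlapped with those of H-CM EGCs. The other chains summed to 776, 620.4, 851 and 823 CPM in the 4 TME-CM libraries, to 1056, 1085, 1096 and 1011 CPM in H-CM EGCs and to 918, 1333, 1275 and 1255 CPM in unstimulated EGCs. Every TME-CM library was thus below every H-CM and every unstimulated library. At 12 h the TME-CM range was 665 to 918 CPM and overlapped with 766 to 1071 CPM in H-CM EGCs. Fibrillar chains summed to 6797, 4979, 6914 and 5578 CPM in TME-CM EGCs, 5073, 5694, 5772 and 5517 CPM in H-CM EGCs and 6156, 8235, 8097 and 7515 CPM in unstimulated EGCs at 24 h. All H-CM libraries lay below all unstimulated libraries, and the TME-CM libraries reached into both ranges. The 6 type IV chains summed to 1981 ± 230 CPM in TME-CM EGCs, 1752 ± 126 CPM in H-CM EGCs and 2131 ± 228 CPM in unstimulated EGCs, with overlap between TME-CM and each other group. No test was made on these sums.

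**Figure D2:**
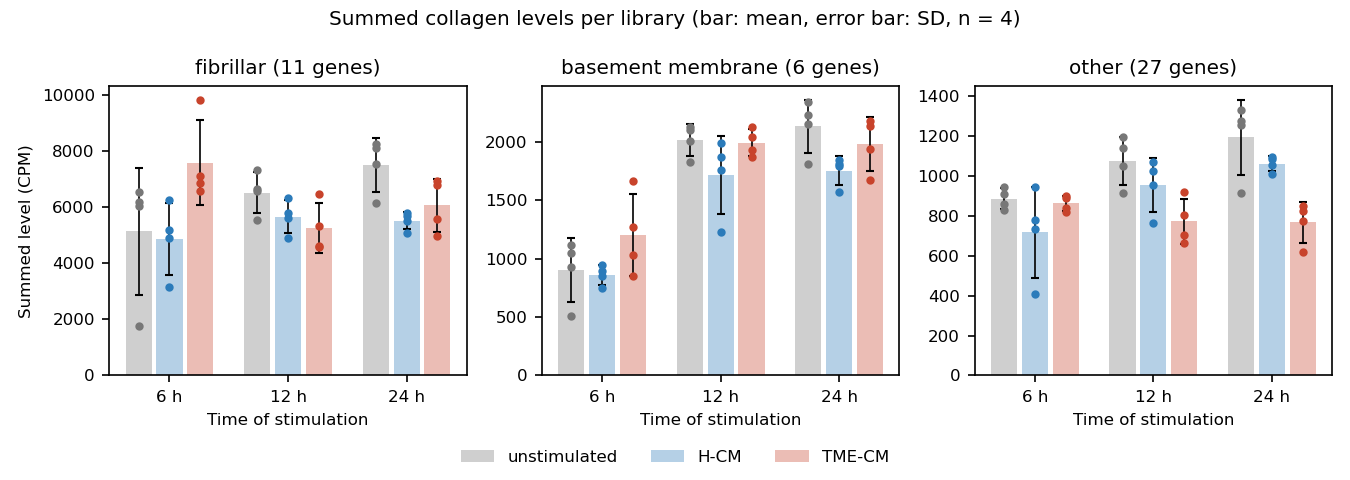
Summed level in CPM of fibrillar, basement membrane (type IV) and other collagen genes, by time of stimulation in h. Bars are means, error bars SDs and points the 4 libraries of unstimulated (grey), H-CM (blue) and TME-CM (red) EGCs. In the panel of other collagens at 24 h, the TME-CM libraries (620.4 to 851 CPM) lie below the H-CM libraries (1011 to 1096 CPM), and 6 h values scatter most.

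Each gene was then compared between stimulations with edgeR's quasi-likelihood test, with Benjamini-Hochberg adjustment over all 12713 genes tested at 24 h, and log2 fold changes are given ± SE. Of the 30 collagen genes tested in TME-CM against H-CM EGCs at 24 h, 8 were called at an adjusted p under 0.05, 3 higher and 5 lower, against 5.4% of all genes tested, 2.75% higher and 2.65% lower. The libraries of the groups did not overlap for 10 of the 30, against 11.1% of all genes tested counted in the same way. The median log2 fold change was -0.22 over the 30 collagen genes and 0.00490 over all genes. By class, 2 of 9 fibrillar genes were called, both higher, 0 of 3 type IV genes, and 6 of 18 others, 1 higher and 5 lower, with medians of 0.10, 0.14 and -0.83. The type IV count of 0 stood beside 1 gene with an unadjusted p under 0.05, Col4a2, and DESeq2's Wald test also called none of the 3. Of all 12713 genes, 2036 had an unadjusted p under 0.05.

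The fibrillar genes that rose were Col24a1 and Col3a1. Col24a1, a minor fibrillar collagen known from developing bone, measured 13.8, 13.2, 14.5 and 16.7 CPM in TME-CM EGCs, 8.47, 6.31, 5.83 and 3.49 CPM in H-CM EGCs and 4.74, 5.77, 6.94 and 4.96 CPM in unstimulated EGCs. All 4 TME-CM libraries were above the other 8. The log2 fold change was 1.22 ± 0.26 (adjusted p = 0.00554, edgeR) against H-CM EGCs and 1.36 ± 0.26 (adjusted p = 0.000969) against unstimulated EGCs, which share the TME-CM libraries. At 12 h its TME-CM range of 7.83 to 11.7 CPM also lay above the H-CM range of 1.14 to 7.55 CPM, but the difference was not called (0.96 ± 0.54, adjusted p = 0.575).

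Col3a1, the collagen of reticular fibers in the gut wall and vessels, measured 1145, 993, 1128 and 783 CPM in TME-CM EGCs, 644, 769, 807 and 749.8 CPM in H-CM EGCs and 977, 872, 949 and 816 CPM in unstimulated EGCs. TME-CM replicate 4 fell within the H-CM range and the other TME-CM libraries lay above it, while the unstimulated range was inside that of TME-CM EGCs. The log2 fold change against H-CM EGCs was 0.44 ± 0.13 (adjusted p = 0.0459, edgeR). This call was the weakest of the 8: it was lost in 7 of 8 fits that left out a library (adjusted p up to 0.155) and kept in 4 of 7 other settings. At 12 h the value was -0.15 ± 0.21 (adjusted p = 0.865), where H-CM replicate 3 alone reached 1302 CPM and leaving it out gave 0.12.

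The abundant type I chains moved little between the conditioned media. Col1a1 measured 3346, 2413, 3436 and 2910.2 CPM in TME-CM EGCs, 2449.8, 2926, 2878 and 2979 CPM in H-CM EGCs and 3074, 4542, 4298 and 4278 CPM in unstimulated EGCs. The TME-CM and H-CM ranges overlapped, and all H-CM libraries were below the unstimulated ones. Col1a2, the partner chain, measured 1153, 719, 1199.7 and 833 CPM in TME-CM EGCs, 946, 902, 989 and 738 CPM in H-CM EGCs and 959.8, 1226, 1396 and 899 CPM in unstimulated EGCs, with overlap throughout. The log2 fold change of TME-CM against H-CM EGCs was 0.10 ± 0.13 for Col1a1 and 0.12 ± 0.16 for Col1a2 (both adjusted p = 0.809, edgeR), which does not show that they were equal. The ratio of Col1a1 to Col1a2 counts was 3.15 ± 0.318 in TME-CM, 3.19 ± 0.621 in H-CM and 3.69 ± 0.764 in unstimulated EGCs, and that of Col3a1 to Col1a1 was 0.338 ± 0.0586, 0.264 ± 0.0120 and 0.230 ± 0.0599 in the same order.

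The other tested fibrillar genes were not called between the conditioned media at 24 h. Col5a1 and Col5a2, the type V chains that seed thin fibrils, stood at 0.01 ± 0.14 and -0.09 ± 0.11 on the log2 scale, and Col11a1 at -0.02 ± 0.19. Col5a3, a further type V chain, stood at 0.56 ± 0.26 (adjusted p = 0.283), and Col27a1 at -0.24 ± 0.15.

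Type IV collagen RNA in EGCs was nearly all from Col4a1 and Col4a2, the chains of ubiquitous basement membranes, and neither was called between the conditioned media. Col4a1 measured 1495, 1167, 1499 and 1278 CPM in TME-CM EGCs, 1046, 1318, 1247 and 1292 CPM in H-CM EGCs and 1224, 1705, 1534 and 1589 CPM in unstimulated EGCs. The 3 groups overlapped, and the log2 fold change of TME-CM against H-CM EGCs was 0.14 ± 0.13 (adjusted p = 0.664, edgeR). Col4a2 measured 627, 500.5, 668 and 644 CPM in TME-CM EGCs, 508, 510.1, 553 and 486 CPM in H-CM EGCs and 570.5, 612, 592 and 621 CPM in unstimulated EGCs. All H-CM values of Col4a2 lay below the unstimulated ones, while TME-CM replicate 2 lay within the H-CM range and the other 3 TME-CM libraries above it (0.24 ± 0.11, adjusted p = 0.278). The ratio of Col4a1 to Col4a2 counts was 2.24 ± 0.177 in TME-CM, 2.39 ± 0.280 in H-CM and 2.52 ± 0.270 in unstimulated EGCs. Col4a5, the X-linked chain, measured 9.66, 9.05, 14.9 and 11.1 CPM in TME-CM EGCs, 12.5, 12.1, 10.1 and 11.9 CPM in H-CM EGCs and 13.5, 20.04, 21.2 and 17.4 CPM in unstimulated EGCs. Its H-CM values all lay below the unstimulated ones and overlapped with TME-CM EGCs (-0.04 ± 0.23, adjusted p = 0.964).

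Transmembrane collagens went in opposite directions. Col13a1, a membrane-spanning collagen of cell adhesion sites, measured 66.6, 36.2, 64.7 and 37.9 CPM in TME-CM EGCs, 21.0, 29.8, 22.8 and 24.4 CPM in H-CM EGCs and 11.5, 24.7, 25.9 and 15.5 CPM in unstimulated EGCs. All TME-CM libraries exceeded all others, though replicates 1 and 3 were far above replicates 2 and 4. The log2 fold change was 1.07 ± 0.24 against H-CM EGCs (adjusted p = 0.00955, edgeR) and 1.39 ± 0.24 against unstimulated EGCs (adjusted p = 0.000464).

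Col23a1, another membrane-spanning collagen, measured 17.1, 18.9, 20.9 and 15.4 CPM in TME-CM EGCs, 33.3, 49.0, 46.5 and 37.3 CPM in H-CM EGCs and 47.1, 30.8, 30.7 and 25.8 CPM in unstimulated EGCs. Every TME-CM library was below the other 8. Its log2 fold change of -1.22 ± 0.20 against H-CM EGCs had the lowest adjusted p of the collagen genes (0.000447, edgeR), and against unstimulated EGCs it was -0.90 ± 0.20 (adjusted p = 0.00356). Col25a1, the third tested transmembrane collagen, stood lower still at -1.90 ± 0.62, but on levels of 0 to 8.27 CPM in these 8 libraries and without a call (adjusted p = 0.0850).

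Type VI collagen, which forms beaded filaments between cells and fibrils, changed most in its Col6a3 chain. Col6a3 measured 108, 63.4, 138 and 91.6 CPM in TME-CM EGCs, 187, 222, 249 and 216 CPM in H-CM EGCs and 153, 381, 287 and 332 CPM in unstimulated EGCs. TME-CM libraries were below all H-CM and all unstimulated libraries. The log2 fold change was -1.13 ± 0.25 against H-CM EGCs (adjusted p = 0.0133, edgeR) and -1.53 ± 0.25 against unstimulated EGCs (adjusted p = 0.000691). The partner chains Col6a1 and Col6a2 stood at -0.42 ± 0.15 (adjusted p = 0.113) and -0.49 ± 0.16 (adjusted p = 0.0812) against H-CM EGCs. The ratio of Col6a3 to Col6a1 counts was 1.02 ± 0.326 in TME-CM, 1.71 ± 0.420 in H-CM and 2.48 ± 0.680 in unstimulated EGCs.

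Among the fibril-associated collagens, which coat the surface of fibrils, Col14a1 fell. It measured 14.3, 7.17, 12.5 and 20.8 CPM in TME-CM EGCs, 27.8, 21.0, 31.2 and 37.3 CPM in H-CM EGCs and 27.9, 23.4, 28.7 and 35.99 CPM in unstimulated EGCs. The highest TME-CM library was just under the lowest H-CM library, and the log2 fold change was -1.05 ± 0.24 (adjusted p = 0.00955, edgeR). Col12a1, a relative of Col14a1 found in tissues under strain, stood at -0.49 ± 0.18 (adjusted p = 0.143) although its TME-CM range of 26.8 to 46.5 CPM did not overlap with the H-CM range of 53.3 to 58.9 CPM, and Col16a1 stood at -0.19 ± 0.30. Col9a2 and Col19a1 did not overlap either, at -0.99 ± 0.46 and -1.03 ± 0.56, on levels under 7 CPM and without a call.

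The short-chain collagens Col8a1 and Col8a2 form hexagonal networks, as in Descemet's membrane of the cornea. Col8a2 measured 20.3, 25.6, 28.9 and 13.2 CPM in TME-CM EGCs, 32.1, 52.3, 65.6 and 30.4 CPM in H-CM EGCs and 49.4, 59.8, 47.9 and 35.6 CPM in unstimulated EGCs. TME-CM values lay below all others, and the difference from H-CM EGCs was -1.07 ± 0.26 on the log2 scale (adjusted p = 0.0204, edgeR). Its partner Col8a1 measured 111, 149.7, 145 and 155 CPM in TME-CM EGCs, 142, 135, 119 and 116 CPM in H-CM EGCs and 146, 171, 186 and 157 CPM in unstimulated EGCs, and its TME-CM and H-CM ranges overlapped (0.12 ± 0.13, adjusted p = 0.745).

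Col18a1, a collagen of basement membrane zones whose end fragment is endostatin, measured 167, 133, 159 and 171 CPM in TME-CM EGCs, 222, 207, 227 and 214 CPM in H-CM EGCs and 165, 183, 209 and 240.0 CPM in unstimulated EGCs. TME-CM values were below all H-CM values but overlapped with unstimulated EGCs, where H-CM values were not called different (0.12 ± 0.12, adjusted p = 0.851). The fall against H-CM EGCs was -0.47 ± 0.13 on the log2 scale (adjusted p = 0.0270, edgeR). It did not pass in 6 of 8 fits that left out a library (adjusted p up to 0.0917). Col7a1, which forms anchoring fibrils, stood at -0.72 ± 0.27 (adjusted p = 0.141).

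**Figure D3:**
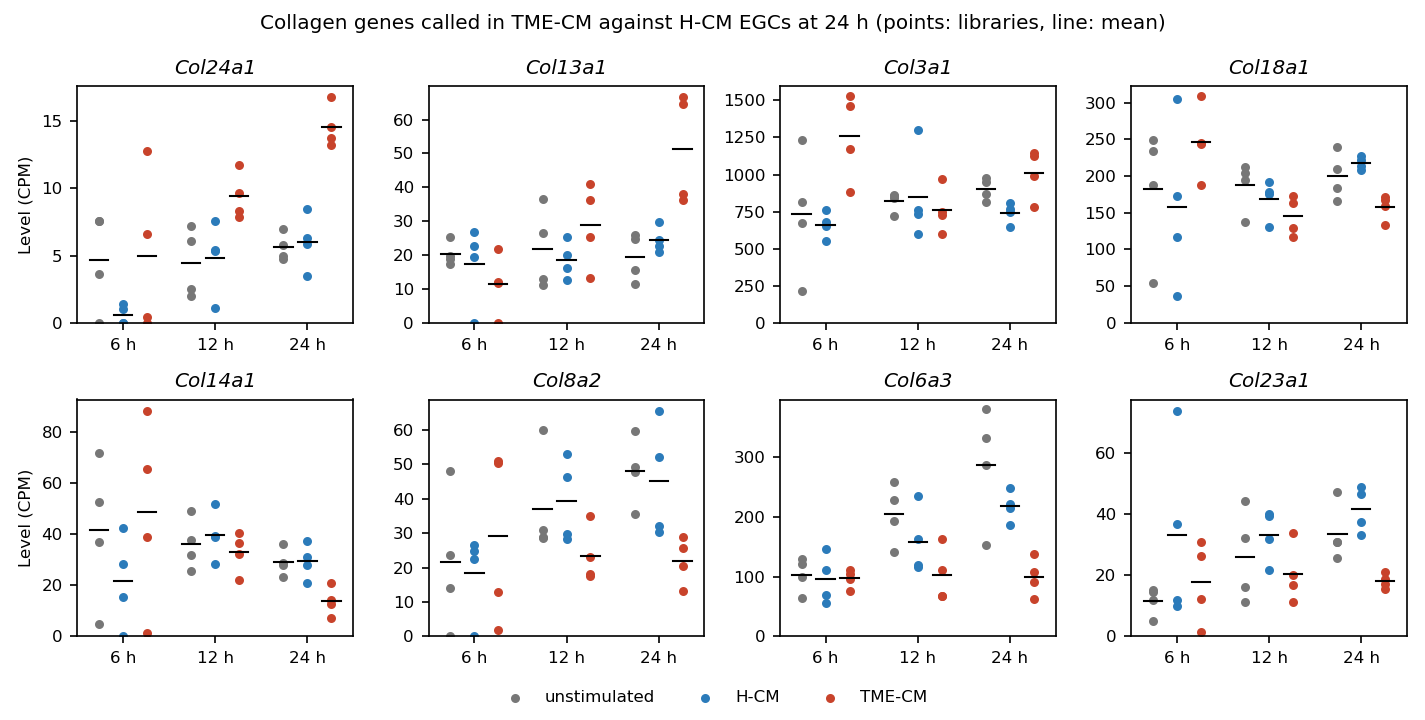
Level in CPM of the 8 collagen genes called in TME-CM against H-CM EGCs at 24 h, by time of stimulation in h, with a point for each library and a line at the mean of 4 (grey unstimulated, blue H-CM, red TME-CM). At 24 h the red points lie above the blue ones for Col24a1 (13.2 to 16.7 against 3.49 to 8.47 CPM) and Col13a1, below them for Col23a1, Col6a3, Col14a1, Col8a2 and Col18a1, and overlap with them for Col3a1.

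These calls depended on which libraries entered the model. In a single edgeR model of all 36 libraries, 0 collagen genes were called (DESeq2, on the 12 libraries of 24 h, called 10), and the cause was not tested. The count was 5 without TME-CM replicate 1, H-CM replicate 2 or H-CM replicate 3 of 24 h, and Col13a1, Col14a1, Col23a1 and Col24a1 were called in all 8 fits that left out a library. Without the shares of all genes called in these fits, a loss particular to collagen genes cannot be read from these counts.

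Earlier, the same comparison gave fewer calls. At 12 h, edgeR called 0 of 28 collagen genes between TME-CM and H-CM EGCs against 1.89% of all genes tested, with 6 at an unadjusted p under 0.05 and 0 by DESeq2. Of all 12156 genes tested at 12 h, 1288 had an unadjusted p under 0.05. The groups did not overlap for 2 of the 28, Col24a1 and Col27a1, against 7.24% of all genes. The lowest adjusted p values at 12 h were those of Col12a1 (-0.75 ± 0.25, adjusted p = 0.169) and Col27a1 (-0.64 ± 0.21, adjusted p = 0.171). All 8 genes called at 24 h were uncalled at 12 h, 7 of them with the same sign and Col3a1 with the opposite sign. The change of the difference itself from 12 h to 24 h was also tested, which called 0 of 29 genes (0% of all genes), with 3 at an unadjusted p under 0.05 (Col9a2, Col14a1 and Col3a1) and 0 by DESeq2, so a later onset was not shown. Of all 12702 genes in that test, 358 had an unadjusted p under 0.05. At 6 h, 0 of 22 were called against 0.0972% of all genes, with 3 at an unadjusted p under 0.05 (Col3a1, Col5a1 and Col5a2, each above 0) and 0 by DESeq2. Of all 9256 genes tested at 6 h, 562 had an unadjusted p under 0.05. The median log2 fold change of all genes was 0.13 in that comparison, beside 0.41 for the collagen genes.

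**Figure D4:**
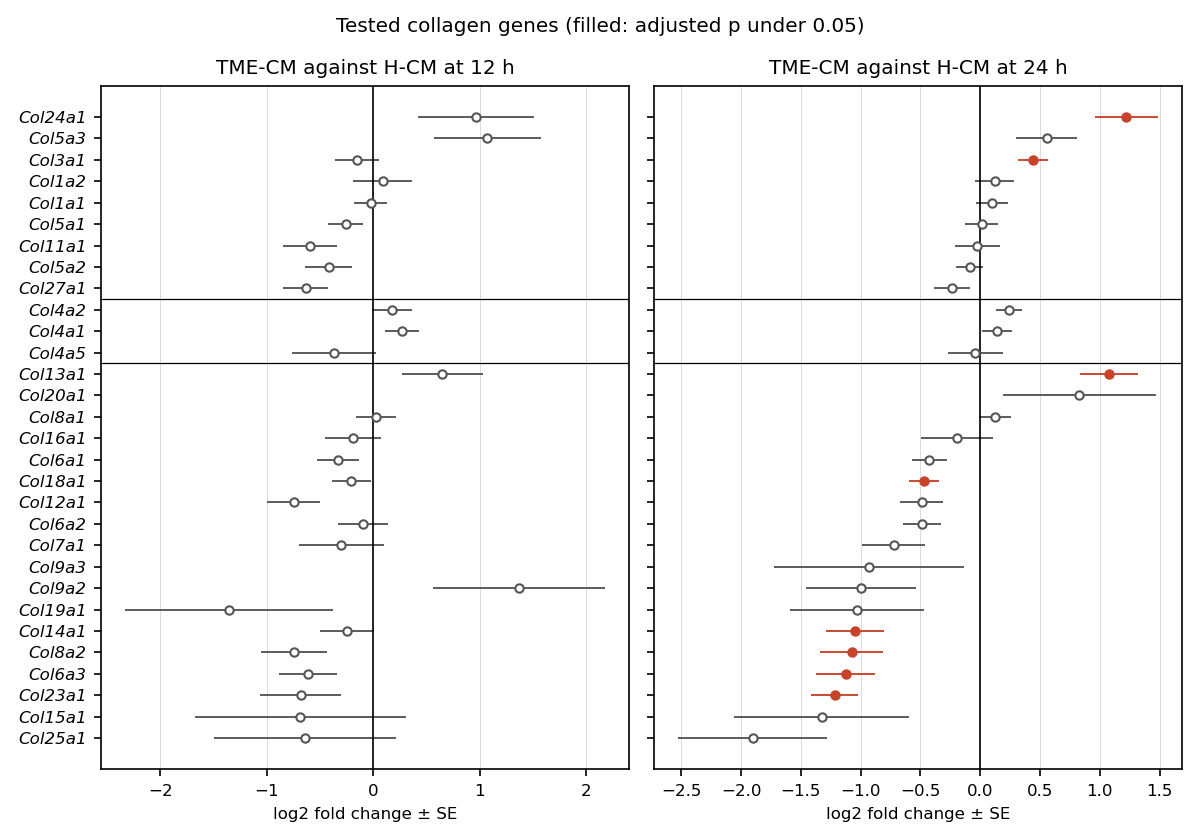
Log2 fold change ± SE of TME-CM against H-CM EGCs at 12 h (left) and 24 h (right) for the 30 collagen genes tested at 24 h, grouped from top to bottom as fibrillar, basement membrane and other. Filled red points have an adjusted p under 0.05. At 12 h no point is filled, and at 24 h 3 filled points lie above 0 (1.22 for Col24a1) and 5 below (-1.22 for Col23a1).

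Against unstimulated EGCs, more collagen genes were lower after TME-CM, including abundant fibrillar chains. At 24 h, 16 of 30 were called, 3 higher and 13 lower, against 9.52% of all genes tested (4.82% higher, 4.7% lower), the groups did not overlap for 12 against 12.9% of all genes, and the median was -0.47 beside 0.00437 over all genes. The model of all 36 libraries called 1 collagen gene here, Col6a3. In the same comparison 10 of 10 tested smooth muscle markers were lower (median -1.71), against 4.7% of all genes, and their part in the collagen falls was not tested. The 3 higher genes were Col13a1, Col24a1 and Col5a3, the last at 1.12 ± 0.26. Among fibrillar chains, Col1a1 fell by 0.43, Col5a1 by 0.46, Col5a2 by 0.49 and Col11a1, a type XI chain, by 0.64 on the log2 scale. Of these, Col5a2 was called in all 8 fits that left out a library, whereas Col1a1, Col5a1 and Col11a1 each lost the call in 6 of 8, with adjusted p up to 0.150, 0.123 and 0.129 (edgeR), and Col1a1 kept it in 3 of 7 other settings. Col6a3, Col23a1, Col14a1 and Col8a2, at -1.15, were lower in this comparison too, as were Col6a2 at -0.72, Col12a1 at -1.10 and Col7a1 at -1.24. Col15a1 and Col19a1 stood at -2.28 (adjusted p = 0.0418, edgeR) and -2.11 (adjusted p = 0.0107) on levels of at most 5 CPM, and Col15a1 lost its call in 6 of 8 fits that left out a library (adjusted p up to 0.136). At 12 h, 3 of 28 were called against 4.41% of all genes (1.74% lower), all of them lower: Col12a1 at -1.12 (adjusted p = 0.00765, edgeR), Col11a1 at -0.96 (adjusted p = 0.0330) and Col6a3 at -1.01 (adjusted p = 0.0380, and 0.0817 with the replicate number as a block). In fits that left out a library the 12 h count ran from 0 (without unstimulated replicate 3 or 4) to 3, with 1 without unstimulated replicate 1 or TME-CM replicate 2 or 4. For these fits and the model of all 36 libraries, the shares of all genes called are not given here. At 6 h, 0 of 22 were called (0.454% of all genes), with 1 at an unadjusted p under 0.05 and 0 by DESeq2. Of all 9256 genes tested at 6 h, 573 reached that unadjusted p.

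Against unstimulated EGCs, most fibrillar and type IV chains had lower values in H-CM EGCs, but only Col1a1 passed the test. Of 10 tested smooth muscle markers, 8 were lower in this comparison at 24 h (median -1.04), against 122 lower of all 12713 genes tested. The part of these markers' cells in the collagen values was not tested. At 24 h, 1 of 30 was called, Col1a1 at -0.53 ± 0.14 (adjusted p = 0.0390, edgeR), against 2.03% of all genes. An unadjusted p under 0.05 was seen for 11 of 30, all but Col5a3 below 0, against 1349 of all 12713 genes. The groups did not overlap for 8 of the 30 against 8.05% of all genes. Without unstimulated replicate 1, in which Col1a1 was lowest, the count was 5, and it was 0 without unstimulated replicate 2, 3 or 4 or without any H-CM replicate. The shares of all genes called in these fits are not given here, so a change particular to collagen genes cannot be read from them. The values side by side, with the same unstimulated libraries as reference, were -0.53 after H-CM and -0.43 after TME-CM for Col1a1, -0.41 and -0.49 for Col5a2, -0.62 and -0.64 for Col11a1, and -0.40 and -1.53 for Col6a3. At 12 h and 6 h, 0 of 28 and 0 of 22 were called (0.403% and 0% of all genes), with 1 and 0 at an unadjusted p under 0.05 and 0 by DESeq2 at both times. Over all genes, 688 of 12156 at 12 h and 58 of 9256 at 6 h reached that unadjusted p.

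From 12 h to 24 h within a stimulation, edgeR called no collagen gene: 0 of 28 in unstimulated EGCs (0.0168% of all genes), 0 of 28 in H-CM EGCs (0%) and 0 of 26 in TME-CM EGCs (0.533%), with 0, 2 and 6 at an unadjusted p under 0.05. Over all genes, 730 of 11872, 634 of 11997 and 959 of 11812 reached that unadjusted p, in the same order. DESeq2 called 0, 0 and 1. The lowest adjusted p was that of Col14a1 in TME-CM EGCs, which stood at -1.26 ± 0.29 (adjusted p = 0.0729, edgeR), and its 24 h TME-CM libraries lay below all 12 h ones.

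Genes that process collagen were described from lists. Of 18 tested genes of hydroxylation and folding, 3 were higher in TME-CM than in H-CM EGCs at 24 h and 0 lower, with a median log2 fold change of 0.08, against 2.75% of all genes tested higher, 2.65% lower and a median of 0.00490. The same shares and median of all genes apply to the other lists of this comparison. P4ha2, a catalytic subunit of prolyl 4-hydroxylase, rose from 56.4 ± 5.05 to 116 ± 11.7 CPM (1.04 ± 0.15, adjusted p = 0.000127, edgeR) and was also the only gene of the list called at 12 h (1.03 ± 0.23). Plod2, the lysyl hydroxylase that directs telopeptide cross-links, rose from 148 ± 16.2 to 230 ± 31.8 CPM (0.63 ± 0.13), and P4ha1 from 127 ± 11.7 to 177 ± 11.8 CPM (0.48 ± 0.12). Serpinh1, the collagen chaperone, lay at 1083 ± 141 CPM after H-CM and at 1086 ± 101 CPM after TME-CM and was not called.

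Of 11 tested genes of propeptide cleavage and cross-linking, Lox, which oxidises lysines for cross-links, was the single gene called, rising from 279 ± 24.0 to 488 ± 58.1 CPM (0.80 ± 0.14, adjusted p = 0.000705, edgeR); unstimulated EGCs had 431 ± 84.2 CPM. Of 11 tested fibril partners 3 were higher and 0 lower. Dcn, decorin, rose from 979 ± 104 to 2277 ± 431 CPM (1.21 ± 0.13), Thbs1 from 591 ± 182 to 1012 ± 77.5 CPM (0.77 ± 0.16), beside 917 ± 96.5 CPM in unstimulated EGCs, and Lum, lumican, from 77.1 ± 7.91 to 122 ± 18.3 CPM (0.65 ± 0.16), beside 98.7 ± 21.8 CPM. Of 14 tested basement membrane partners 2 were higher and 0 lower, the laminin chains Lama1 (2.33 ± 1.57 to 10.5 ± 1.94 CPM, 2.0 ± 0.44) and Lama4 (41.3 ± 7.62 to 87.0 ± 25.1 CPM, 1.08 ± 0.20), while no type IV chain was called. Of 7 tested collagen receptors, Ddr1, a receptor tyrosine kinase for collagen, was the single gene called and fell from 261 ± 41.7 to 182 ± 23.2 CPM (-0.53 ± 0.14, adjusted p = 0.0200). The medians of these 4 lists were 0.00981, -0.04, -0.10 and -0.24.

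**Figure D5:**
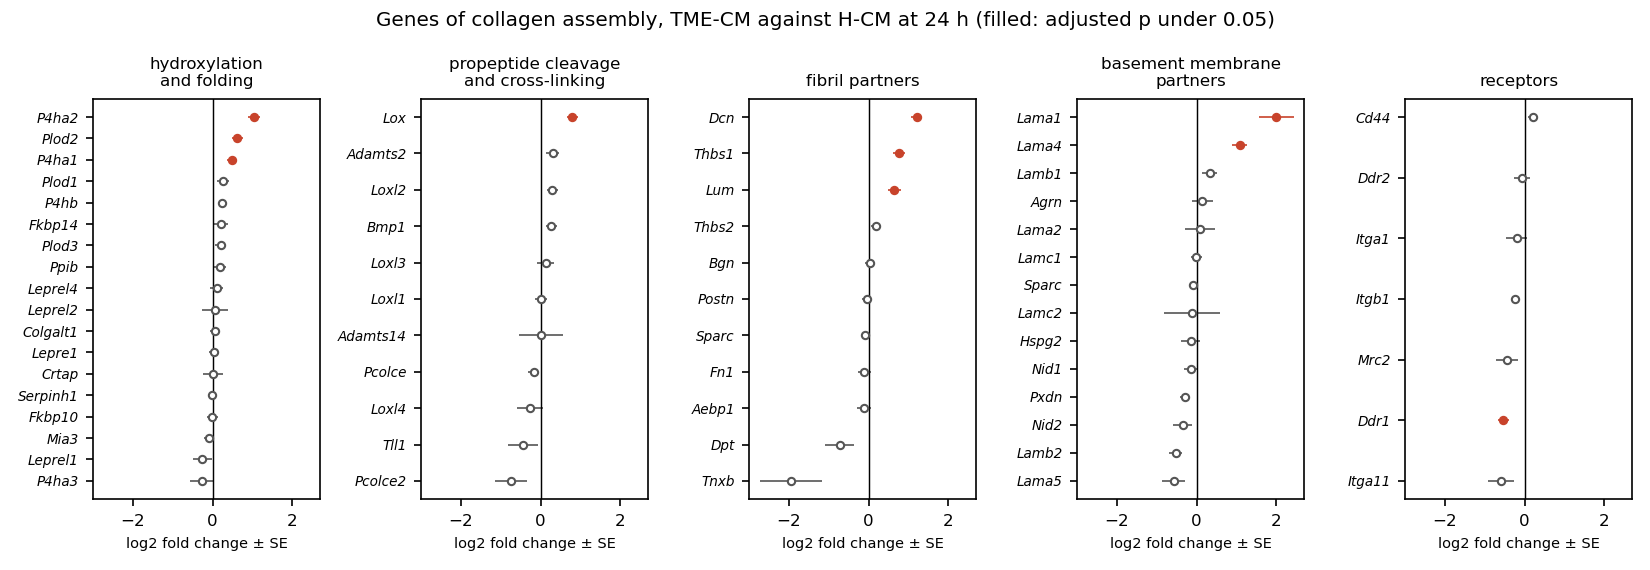
Log2 fold change ± SE of TME-CM against H-CM EGCs at 24 h for tested genes of collagen hydroxylation and folding, propeptide cleavage and cross-linking, fibril partners, basement membrane partners and receptors, on a common axis. Filled red points have an adjusted p under 0.05. They lie above 0 in the first 4 panels (1.04 for P4ha2, 0.80 for Lox, 1.21 for Dcn, 2.0 for Lama1) and below 0 for Ddr1 among receptors.

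Some markers of other mesenchymal cells also changed, in both directions. The 9 fibroblast markers, which include Dcn and Lum, summed to 2233 to 3188 CPM in TME-CM, 1209 to 1386 CPM in H-CM and 1223 to 1449 CPM in unstimulated EGCs at 24 h, and of 8 tested 3 were higher (Dcn, Lum and Pdgfra) and 1 lower (Pdgfrb) in TME-CM than in H-CM EGCs, against 2.75% and 2.65% of all genes. Most of that sum was Dcn: the other 8 markers summed to 302 to 373 CPM in TME-CM, 252 to 290.1 CPM in H-CM and 301 to 328 CPM in unstimulated EGCs. The 11 smooth muscle markers summed to 2615 to 3455 CPM, 4447 to 5693 CPM and 9243 to 11028 CPM in the same order, and of 10 tested 6 were lower (among them Acta2, Des and Myh11) and 0 higher, against the same shares of all genes. Glial, neuronal and macrophage markers had 0 calls of 9, 9 and 8 tested, and the glial sum ranged from 248 to 325 CPM in TME-CM and from 274 to 295 CPM in H-CM EGCs. Of 3 tested endothelial markers 1 was lower (Kdr), and epithelial and mesothelial markers had 0 calls of 1 and 2 tested. The part of these cells in the collagen results was not tested.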

How the data were processed

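RNA of 36 EGC libraries was sequenced by the authors with QuantSeq 3′ mRNA. The authors filtered adapters, used HISAT2 for alignment to mm10, left out reads with several matches in the genome (SAMtools 1.5, FastQC 0.11.7 per the labels) and counted reads per gene with HT-seq. The deposited values are these raw counts by gene symbol. The annotation, strand setting and any use of molecular identifiers are not given in the sources used here.

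Tests used edgeR 4.0.16 under R 4.3.3 with limma 3.58.1 on the counts as deposited: filterByExpr (minimum count 10), TMM factors, a robust quasi-likelihood fit with a mean per group, and adjusted p under 0.05. Each time point was a model of its 12 libraries (9256, 12156 and 12713 genes tested at 6, 12 and 24 h; common dispersion 0.572, 0.122 and 0.0455). Times were compared within a stimulation over 8 libraries, and the change of the effect over 16. CPM come from a TMM scaling of all 36 libraries. SEs are the log2 fold change divided by the root of the test's F. The fits were also run on counts simulated from their own dispersions and means. Such counts hold no outlying libraries, so this run cannot show how the fits handle them. No libraries were duplicates, the smallest chi-square per gene between replicates being 3.32.

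The filter kept 22, 28 and 30 collagen genes. Genes given in every library were those called in TME-CM against H-CM at 12 or 24 h and the top 3 of each class by mean at 24 h. From lists, up to 4 called genes with the largest changes are given. Col4a2 and Serpinh1 beside counts, and uncalled genes beside their partners, were named after their values were seen. Members and lists were chosen with earlier results of these data known. Alternatives were DESeq2 1.42.0 (size factors, Wald test), no filter, a replicate block, Yam1 left out, the compared groups alone, all libraries in one model, and each library left out.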

Additional observations from a re-analysis of the deposited data

Results flagged for a closer look

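Dixon's criterion for a library far from the other 3 of its group was met in 7 of 153 groups looked at (the 14 genes given in detail and the class sums), and chance gives about 1 in 20. At 6 h, Col1a2 lay at 221.7 CPM in H-CM replicate 4 against 651 to 716 CPM in the others, Col8a2 at 0 CPM in the same library against 22.6 to 26.6 CPM, Col4a1 at 419.6 CPM in unstimulated replicate 3 against 724 to 766 CPM, the fibrillar sum at 1758 CPM in that library against 6031 to 6550 CPM, and the fibrillar sum at 9818 CPM in TME-CM replicate 3 against 6554 to 7092 CPM. H-CM replicate 4 and unstimulated replicate 3 of 6 h had the lowest totals of their groups, 13518 and 256453 counts, and a count of 0 in the former allows up to 110.8 CPM on the scaled library size, taking 3 counts as the upper limit for counting error. At 12 h, unstimulated replicate 2 had 721.7 CPM of Col3a1 against 843 to 859 CPM and 60.11 CPM of Col8a2 against 28.5 to 30.9 CPM.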

How the results depend on the processing

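A single model of all 36 libraries changed the counts of called collagen genes most. It called 3 and 2 genes for TME-CM against H-CM and against unstimulated EGCs at 6 h (0 and 0 in the models by time), 0 for TME-CM against unstimulated EGCs at 12 h (3), and 0, 1 and 0 for TME-CM against H-CM, TME-CM against unstimulated and H-CM against unstimulated EGCs at 24 h (8, 16 and 1). Without the filter on low counts the count was 1 for TME-CM against H-CM EGCs at 12 h (0), 4 for H-CM against unstimulated EGCs at 24 h (1) and 1 for 24 h against 12 h in TME-CM EGCs (0). DESeq2 gave 3 and 1 for the last 2 of these. The causes were not tested, and the shares of all genes called under these settings are not given here. Other counts stayed within 1.5 times under these settings, under DESeq2 size factors, with Yam1 left out and with the compared groups alone.

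Over all genes, replicate numbers did not pair the samples by the criterion used, a correlation of same-numbered deviations from the group means over 0.1 for every pair: the correlations ran from -0.162 to 0.229. Single gene groups followed the number, however. Macrophage markers summed to 166 to 340 CPM in the 12 libraries numbered 1 or 2 at 12 and 24 h, in every stimulation, and to 52.0 to 133 CPM in those numbered 3 or 4; whether same-numbered libraries shared a preparation was not tested. With the replicate number as a block, 7 of the 8 genes were called for TME-CM against H-CM EGCs at 24 h (not Col3a1), 0 genes were called for H-CM against unstimulated EGCs at 24 h and 1 for 24 h against 12 h in TME-CM EGCs, and Col6a3 at 12 h and Col1a1 at 24 h were no longer called for TME-CM against unstimulated EGCs. The block ended no other call of a named gene. The shares of all genes called with the block are not given here.

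With each library left out, the count ran from 5 to 7 for TME-CM against H-CM EGCs at 24 h, 0 to 1 at 12 h (1 without H-CM replicate 3), 12 to 17 for TME-CM against unstimulated EGCs at 24 h and 0 to 3 at 12 h, 0 to 5 for H-CM against unstimulated EGCs at 24 h, and 0 to 1 for 24 h against 12 h in TME-CM EGCs (1 without TME-CM replicate 2 of 12 h). The shares of all genes called in these fits are not given here. Col6a3 lost its call without TME-CM replicate 4 (adjusted p = 0.0536, edgeR), Col8a2 in 4 of 8 such fits and Col18a1 in 6 of 8. Small values of uncalled genes changed sign. On the log2 scale, the 12 h difference between TME-CM and H-CM EGCs ran for Col1a1 from -0.1386 to 0.05224, for Col1a2 from -0.1473 to 0.3352, for Col8a1 from -0.1006 to 0.1084 (-0.003262 without the filter) and for Col3a1 from -0.2897 to 0.1234, and the 24 h difference ran for Col4a5 from -0.2216 to 0.0384.

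Leaving out Yam1, which held up to 48.6% of a library's counts at 6 h, raised all class sums. In unstimulated, H-CM and TME-CM EGCs the type IV sums became 1233, 1156 and 1635 CPM at 6 h, 2751, 2351 and 2709 CPM at 12 h and 2936, 2395 and 2689 CPM at 24 h. The fibrillar sums became 8900, 7741 and 7134 CPM at 12 h and 10330, 7536 and 8234 CPM at 24 h, and at 6 h 6576 CPM in H-CM and 10310 CPM in TME-CM EGCs. The other chains became 1211, 972.1 and 1174 CPM at 6 h, 1469, 1309 and 1052 CPM at 12 h and 1647, 1451 and 1042 CPM at 24 h. With DESeq2 size factors the type IV sum of H-CM EGCs at 6 h was 943.1 CPM, and that of other chains 1009 CPM in unstimulated and 824.8 CPM in TME-CM EGCs at 6 h. Depth limited 6 h values most, where 3 counts were worth 0.642 to 111 CPM, against 0.330 to 1.49 CPM at 24 h.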

Other observations

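Single libraries held most counts of a few rare collagen genes. Col10a1, the collagen of hypertrophic cartilage, had 172 counts in all, of which 137 were in TME-CM replicate 3 of 6 h, and it shares 18 exon bases with Nt5dc1 on the opposite strand. Col28a1 had 159 counts, of which 102 were in TME-CM replicate 1 of 6 h. Col2a1 had 9 counts in unstimulated replicate 3 of 6 h and 5 in TME-CM replicate 4 of 12 h, and 0 elsewhere. None of these genes passed the filter on low counts at 24 h.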
